A study of Mus musculus with 2 samples.

Results

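The genes described are 10 members of 2 families of transient receptor potential (TRP) cation channels, namely the TRPV genes *Trpv1*, *Trpv2*, *Trpv3*, *Trpv4* and *Trpv6* and the TRPM genes *Trpm2*, *Trpm3*, *Trpm4*, *Trpm6* and *Trpm7*. They were taken by gene symbol from a table of 18043 rows with a symbol, in which each member had 1 row, and *Trpm5*, the channel of taste transduction, served as the comparison. The study asked which genes are expressed more in the circumvallate papillae (CvP), the posterior taste papillae of the tongue, than in the lingual epithelium without papillae (Epi). Both tissues came from male, unedited C57BL/6J mice of 12 to 30 weeks on normal chow, with no treatment, and RNA from 20 or more mice was pooled into 1 poly(A) library per tissue. The study describes its CvP sample for RT-PCR as including epithelium around the taste buds, which its sequencing methods do not mention. With 1 library per tissue no replicate check exists, no p-value was calculated, and every ratio compares these 2 libraries. In bulk RNA, fewer cells of a type and less RNA per cell cannot be told apart.

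TRP channels are tetramers that let cations cross a membrane when they are opened by heat, cold, ligands, calcium or stretch. In sensory neurons and in the outer layers of skin and mucosa TRPV channels report warmth, acid, osmotic change and pungent compounds, and *Trpv6* is a calcium entry channel of absorbing epithelia. TRPM channels are more varied. *Trpm4* and *Trpm5* open on intracellular calcium and pass sodium and potassium, whereas *Trpm6* and *Trpm7* carry magnesium and calcium and end in a protein kinase domain. In type II taste cells, which detect sweet, umami and bitter compounds, *Trpm5* opens after phospholipase C releases calcium and depolarizes the cell.

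The values are deposited RPKM, read densities scaled to gene length and to all mapped reads. The steps between the lowest values put the depth at about 28381874 mapped reads for the CvP library and 27915144 for the Epi library, from which the reads behind each gene were estimated. Each CvP/Epi ratio has a 95% exact (Clopper-Pearson) interval from these reads, which covers counting error only. Most rows were somewhat higher in the CvP. For the 10363 rows at an RPKM of 1 or more in each library the median CvP/Epi ratio was 1.31 (log2 0.39), so that ratios of single genes are also given after division by this median. Markers of type II and type III taste cells were mostly of the CvP library, while the 3 listed genes of type I were divided. Of these 3, 2 had a ratio above 3 and *Slc1a3*, at an RPKM of 1.04 (CvP) and 3.82 (Epi), had 0.272. Of the 7 listed genes of type II taste cells, 6 had a ratio above 3, as had all 7 of type III, and none of the 9 keratinocyte genes did. The 6 skeletal muscle genes were all below 1/3, with RPKM summing to 4.27 (CvP) and 47.9 (Epi). The 4 salivary gland genes with a row were divided. *Lipf* (1.96 and 313 RPKM) and *Amy1* (0.85 and 80.5) were below 1/3, and *Pigr* (12.0 and 0.54) and *Aqp5* (6.09 and 0.69) were above 3.

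Close relatives of these channels could share reads, so the stretches in which their coding sequences are most alike are shown at the read length of 75 bases. For each pair the window with the fewest mismatches, without gaps, was found among the longest coding sequences of GENCODE M1. Capitals mark the bases that differ, and positions are counted from 1 at the first base of the coding sequence. *Trpm6* (bases 3152 to 3226) and *Trpm7* (bases 3215 to 3289) differed at 14 of the 75 bases.
Trpm6: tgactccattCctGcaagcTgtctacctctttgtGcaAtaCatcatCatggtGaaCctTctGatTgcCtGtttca
Trpm7: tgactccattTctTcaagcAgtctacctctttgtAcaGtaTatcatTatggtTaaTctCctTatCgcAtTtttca
*Trpm4* (bases 2762 to 2836) and *Trpm5* (bases 2600 to 2674) differed at 12.
Trpm4: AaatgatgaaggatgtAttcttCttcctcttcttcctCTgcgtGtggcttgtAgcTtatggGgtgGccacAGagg
Trpm5: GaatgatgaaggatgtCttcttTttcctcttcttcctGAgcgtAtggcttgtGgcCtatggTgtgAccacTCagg
*Trpv6* (bases 493 to 567) and its neighbour *Trpv5* (bases 475 to 549), which was not analysed here for want of a row, differed at 2.
Trpv5: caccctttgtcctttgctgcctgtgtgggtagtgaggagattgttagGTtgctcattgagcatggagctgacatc
Trpv6: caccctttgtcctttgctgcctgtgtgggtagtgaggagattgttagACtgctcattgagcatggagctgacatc
Of the 40 pairs within a family that include a member, 1 pair had any window within 2 mismatches, namely *Trpv5* and *Trpv6*, and this held for 15 of the 2098 windows of *Trpv5*. The value of *Trpv6* could therefore hold a few reads of *Trpv5*. The treatment of reads with several matches is not given in the sources used here.

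In the CvP, *Trpm4* (RPKM 14.1) and *Trpm7* (12.1) were the highest members, followed by *Trpv4* (7.88), *Trpv3* (4.77), *Trpm6* (2.14), *Trpv6* (1.90), *Trpm2* (0.87), *Trpv2* (0.48), *Trpv1* (0.37) and *Trpm3* (0.06). Neighbours in this order had separate counting intervals except *Trpm6* and *Trpv6*, and *Trpv2* and *Trpv1*. In the Epi, *Trpv3* (7.34), *Trpm7* (6.78), *Trpm4* (6.25) and *Trpv4* (5.35) were highest, and each overlapped the next in its interval. *Trpv6* (1.76) and *Trpv2* (0.12) followed, *Trpm6* was at 0.01, and *Trpv1*, *Trpm2* and *Trpm3* were listed at 0. Thus 4 channel genes were well above the rest in both libraries, and the other 6 had low levels in the CvP. No member reached *Trpm5*, whose CvP RPKM of 37.8 was 2.68 times that of *Trpm4* and 3.13 times that of *Trpm7*.

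**Figure D1:**
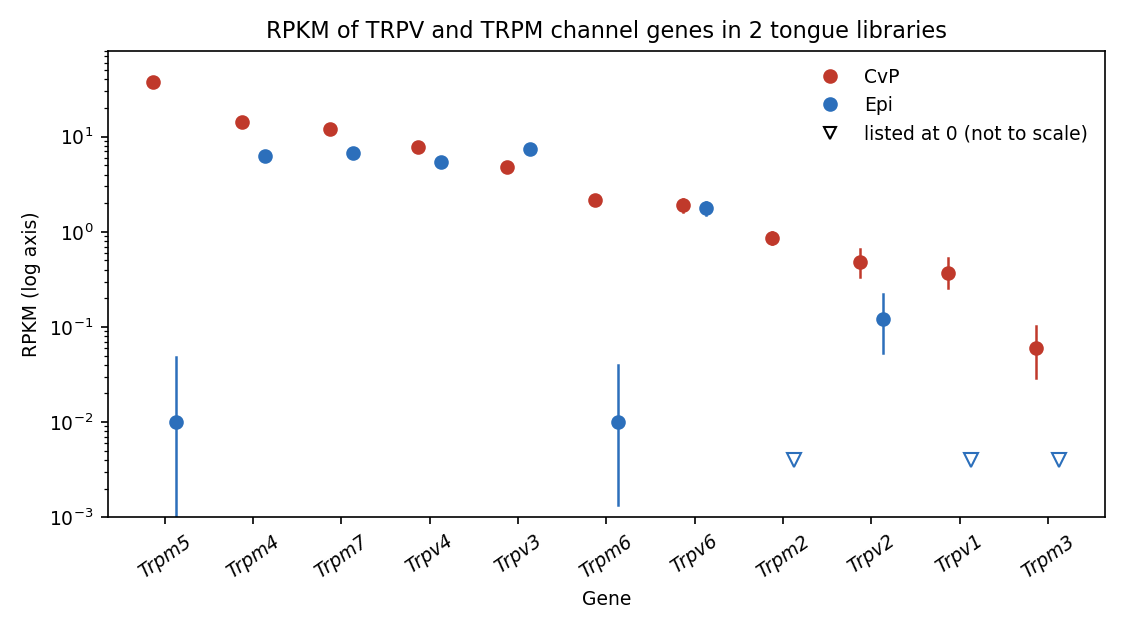
RPKM of the 10 channel genes and of *Trpm5* in the CvP library (red) and the Epi library (blue), on a log axis, with 95% counting intervals as bars (cut at the lower edge for *Trpm5*). Open triangles mark genes listed at 0 in the Epi, placed at an arbitrary height. *Trpm4*, *Trpm7*, *Trpv4* and *Trpv3* lie between 4.77 and 14.1 in each tissue, while *Trpm5* and *Trpm6* drop to 0.01 in the Epi.

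Of the 10 members, 9 had their higher value in the papillae and 1, *Trpv3*, in the epithelium. The counting interval of the ratio lay above 1 for 8 members and below 1 for 1, against 58.5% and 12.4% of all rows with an RPKM above 0 in either library. A ratio above 3 was found for 5 members when no level was required, against 26.1% of all such rows. The study required this ratio together with a CvP RPKM above 10, and 0 members met both. A filter of RPKM 1 or more in at least 1 library left 6 members, of which 1 (*Trpm6*) had a ratio above 3, against 15.9% of the rows past the same filter, and 0 had a ratio below 1/3, against 1.96%. *Trpm6* passed this filter through the CvP alone. The higher value was that of the CvP for 9805 of the 12549 rows past the filter, which is the background for each count of genes higher in the CvP. The median log2 ratio of these 6 members, with a pseudocount of 0.1, was 0.69, beside 0.50 for all rows past the filter. The median was 1.16 over the 3 TRPM genes past the filter and 0.10 over the 3 TRPV genes.

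**Figure D2:**
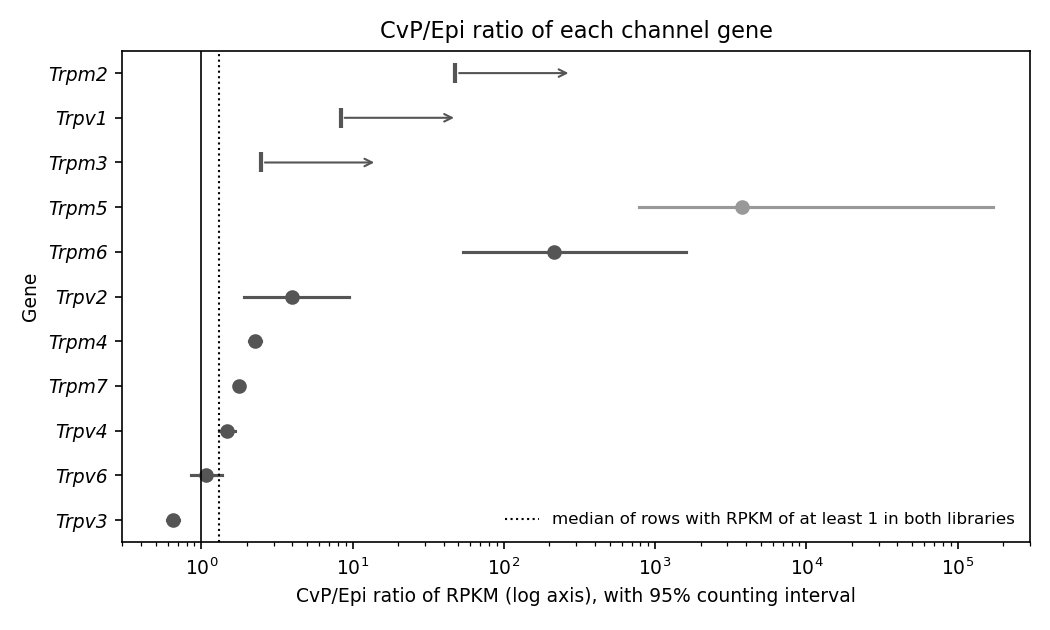
CvP/Epi ratio of RPKM for the 10 channel genes and for *Trpm5* (grey), on a log axis, with 95% counting intervals. Arrows start at the lower limit of the interval for the 3 genes listed at 0 in the Epi, the solid line marks a ratio of 1 and the dotted line the median ratio of 1.31. *Trpv3* lies below 1, *Trpv6* across it, and *Trpm6* and *Trpm2* far above it.

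*Trpm4* and *Trpm7* were the members with the highest CvP levels, and both were also read from the Epi. *Trpm4*, which depolarizes cells on a rise of calcium as *Trpm5* does, lies on the minus strand of chromosome 7 (52558525 to 52589150, NCBI37/mm9), and its coding transcript has 25 exons in GENCODE M1. The CvP library gave it an RPKM of 14.1 and the Epi library 6.25, about 1715 and 748 reads, a ratio of 2.25 (95% interval 2.07 to 2.46) that was 1.72 after division by the median. *Trpm7*, a widely expressed magnesium and calcium channel with a kinase domain, lies on the minus strand of chromosome 2 (126617294 to 126701997). At an RPKM of 12.1 and 6.78, about 2439 and 1345 reads, it had a ratio of 1.78 (1.67 to 1.91), or 1.36 after division by the median. Both intervals lay above 1 and above the median ratio of 1.31. These 2 members alone passed a CvP RPKM above 10, and neither passed the ratio above 3.

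The near relatives of these broad channels differed from them between the tissues. The RPKM of *Trpm5* was 37.8 among the papillae and 0.01 outside them, which is about 1 read, and the interval of its ratio ran from 780.4 upwards. *Trpm5* was thus 2.68 times the level of *Trpm4* in the CvP, and *Trpm4* was 625 times the level of *Trpm5* in the Epi, a value that rests on that read. *Trpm6*, the partner of *Trpm7* in magnesium uptake in kidney and intestine, lies on the plus strand of chromosome 19 (18824473 to 18967001) and has 39 exons, as many as *Trpm7*. It reached an RPKM of 2.14 in CvP RNA against 0.01 in Epi RNA, about 395 reads against 2, and the ratio of 214 had a counting interval of 53.4 to 1610. Values are given to 2 decimals, so that 1 Epi read fits the listed *Trpm6* value as well. In the CvP *Trpm7* was 5.65 times the level of *Trpm6*. In the Epi the pair stood at 6.78 and 0.01. Each pair therefore held a gene present in both tissues and a gene read almost only from the papillae. At 12 and 14 mismatches in the closest windows printed above, reads of *Trpm4* and *Trpm5*, or of *Trpm6* and *Trpm7*, differ by more than the 2 bases of the *Trpv5* and *Trpv6* pair.

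The sequences just before the RefSeq starts of *Trpm6* and *Trpm7* are shown because the pair differed in its level outside the papillae. Each holds the 250 bases before the start on the strand of the gene, from RefSeq (GRCm38.p6), and was found once, by exact match, on NCBI37/mm9. The *Trpm6* window lies at chr19:18823970-18824219 on the plus strand and has 7 CpG dinucleotides.
Trpm6: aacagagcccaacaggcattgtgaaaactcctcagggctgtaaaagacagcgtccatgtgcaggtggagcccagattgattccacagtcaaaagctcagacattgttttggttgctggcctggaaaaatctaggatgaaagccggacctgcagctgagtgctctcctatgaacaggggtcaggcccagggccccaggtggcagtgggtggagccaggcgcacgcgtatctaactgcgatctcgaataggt
The *Trpm7* window lies at chr2:126701998-126702247 on the minus strand and has 26.
Trpm7: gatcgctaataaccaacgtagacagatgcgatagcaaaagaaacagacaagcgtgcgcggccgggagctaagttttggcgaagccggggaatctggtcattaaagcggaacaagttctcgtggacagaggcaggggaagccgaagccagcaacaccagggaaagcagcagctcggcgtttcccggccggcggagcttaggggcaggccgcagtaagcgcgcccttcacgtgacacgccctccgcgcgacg
The median over 32851 such windows was 6 CpG, and 90.4% of them had fewer than that of *Trpm7* and 53.7% fewer than that of *Trpm6*. Both strands were searched for 4 motifs, whose matches would stand in capitals, and neither window held any. The octamer ATGCAAAT, read by POU factors such as the type II cell factor *Pou2f3*, was present in 1.60% of the windows. The TATA box TATAAA was present in 12.4% of them. The share was 33.8% for the CCAAT box, searched by these letters, and the GC box GGGCGG was found in 32.7%. The RefSeq start of *Trpm6* lies upstream of the start listed in the table, and that of *Trpm7* adjoins it.

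*Trpm2* and *Trpm3* were low TRPM genes with no listed expression in the Epi. *Trpm2*, a calcium-permeable channel opened by ADP-ribose and oxidative stress and known from phagocytes, lies on the minus strand of chromosome 10 (77370467 to 77432617). About 180 reads gave it a CvP RPKM of 0.87, and its Epi value was listed at 0. The lower limit of its ratio was 47.5, or 31.4 if the Epi held 1 read, which would also be listed as 0. *Trpm3*, a heat and steroid sensing channel of sensory neurons, lies on the plus strand of chromosome 19 (22213607 to 23064374) and had a CvP RPKM of 0.06, about 11 reads, an Epi value of 0 and a lower limit of 2.47. Its level was too low for more than its presence to be stated. An Epi RPKM of 0 was listed for 9.66% of all rows with an RPKM above 0 in either library and for 3 of the 10 members.

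Immune cell genes moved in the same direction as *Trpm2*. All 7 of the 9 listed immune genes past the filter were higher in the CvP, 6 of them with a ratio above 3, and the RPKM of the list summed to 176 (CvP) and 8.12 (Epi). Among them, the myeloid genes *Itgam* and *Csf1r* had ratios of 4.48 and 4.09, and *Lyz2* had 131.6 and 0.43 RPKM. *Cd3e*, the T cell receptor component, had a CvP RPKM of 0.15 and none listed for the Epi. The part of immune cells in the *Trpm2* result was not tested. The enzymes that make and break down ADP-ribose were expressed in both libraries. Of the 9 listed genes 8 passed the filter, 0 of them with a ratio above 3. The ratio was above 1 for all 8, but its counting interval lay across 1 for 4 of them (*Nudt9*, *Nudt5*, *Adprhl2* and *Macrod1*). The median log2 ratio was 0.22, below the 0.50 for all rows past the filter. *Parp1*, which makes poly(ADP-ribose), had an RPKM of 13.3 and 7.53, a ratio of 1.76, and *Nudt9*, which hydrolyses ADP-ribose, 12.2 and 11.2. The list also held *Parp2*, *Parg*, *Bst1*, *Nudt5*, *Adprhl2* and *Macrod1*, with ratios from 1.04 to 2.84, and *Cd38* at 0.09 and 0.03.

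Among the TRPV genes *Trpv3* was the member higher in the Epi. It is a warmth-gated channel of keratinocytes that works with the EGF receptor in skin, and lies on the plus strand of chromosome 11 (73081122 to 73110702), with 18 exons. Its RPKM was 4.77 (CvP) and 7.34 (Epi), about 790 and 1196 reads, a ratio of 0.650 (95% interval 0.593 to 0.711), which was 0.495 after division by the median and 0.784 with both libraries rescaled to the same sum. In the Epi it was thus 1.54 times the CvP level (interval 1.41 to 1.69). The partner genes of *Trpv3* in keratinocytes were split. Of 8 listed genes, all past the filter, 3 had the higher value in CvP RNA and 5 in Epi RNA. The receptor *Egfr* had a ratio of 0.901 and its ligand *Tgfa* 0.800. The transglutaminases *Tgm1* and *Tgm3*, which cross-link the cornified envelope, had 0.721 and 0.675, and *Tgm5* had 0.959 with an interval across 1. Past 3 in the CvP were the ligands *Hbegf* (47.4 and 9.85 RPKM, ratio 4.81) and *Areg* (7.82 and 2.42, ratio 3.23), and the ligand-releasing protease *Adam17* had 1.38. Keratinocyte markers were likewise split, with 4 of 9 higher in CvP RNA and 5 in Epi RNA, and a CvP sum of 36447 RPKM beside an Epi sum of 84652. *Krt14*, of basal cells, had a ratio of 0.259 and *Lor*, of cornified cells, 0.240, while *Trp63* and *Dsg3* had 1.85 and 2.36. The part of these cells in the *Trpv3* result was not tested.

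*Trpv4*, opened by osmotic swelling, warmth and lipids, and *Trpv6* differed little between the libraries. *Trpv4* lies on the minus strand of chromosome 5 (115072163 to 115108430) and had an RPKM of 7.88 and 5.35, about 722 and 482 reads. Its ratio of 1.47 (1.31 to 1.66) had a lower limit just under the median ratio, and was 1.12 after division by it. *Trpv3* and *Trpv4* thus stood in opposite order in the tissues, with *Trpv4* at 1.65 times the level of *Trpv3* in the CvP and *Trpv3* at 1.37 times the level of *Trpv4* in the Epi. *Trpv6* lies on the minus strand of chromosome 6 (41570618 to 41586404) and had an RPKM of 1.90 and 1.76, about 158 and 144 reads. No difference was detectable at this depth, since the interval of its ratio of 1.08 ran from 0.856 to 1.36, and the ratio was 0.822 after division by the median.

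Calcium transport genes that act with *Trpv6* in intestine and kidney were measured beside it. Of 12 listed genes 11 had a row and 7 passed the filter, all higher in the CvP and 3 with a ratio above 3. Their median log2 ratio was 0.93, beside 0.50 for all rows past the filter. *S100g*, the intracellular calcium carrier calbindin-D9k, had an RPKM of 15.0 and 0.90, a ratio of 16.6 (9.37 to 32.9). *S100a10*, which binds the channel together with annexin *Anxa2*, had 151.7 and 46.9, a ratio of 3.23, and *Anxa2* 473 and 249.1. The exchanger *Slc8a1* was at 1.37 and 0.33, a ratio of 4.15. The calcium pump genes *Atp2b1* and *Atp2b4* had ratios of 1.90 and 1.26, and the vitamin D receptor *Vdr*, a regulator of *Trpv6*, had 1.33. *Calb1*, *Atp2b2*, *Cyp24a1* and *Cyp27b1* were below 1 RPKM in both.

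*Trpv1*, the heat, acid and capsaicin channel of pain fibres, and *Trpv2*, a related channel of neurons and macrophages, were low. *Trpv1* lies next to *Trpv3* on chromosome 11 (73051761 to 73074009, plus strand), and the neighbours do not share exons. About 33 reads gave it a CvP RPKM of 0.37, and it was listed at 0 for the Epi. There a floor of 3 reads stood at an RPKM of 0.0345, and the upper limit of the 95% counting interval at 0.0425. The lower limit of the *Trpv1* ratio was 8.32. *Trpv2* (chromosome 11, 62387988 to 62413807, plus strand) had an RPKM of 0.48 and 0.12, about 37 and 9 reads, a ratio of 4 (1.92 to 9.53) that was 3.05 after division by the median. The neighbours *Trpv1* and *Trpv3*, 2 genes in a row on the same strand, thus had opposite directions.

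Several markers of sensory neurons were at or near 0. *Scn11a* was at 0 in both libraries, *Prph* was at 0.02 and 0, and *P2rx3* was at 0.16 and 0.04. Of the 8 listed neuron genes 6 had a row and 2 passed the filter. They were *Calca*, the gene of calcitonin and CGRP, at 10.7 and 0, and *Tubb3*, a neuronal tubulin, at 4.58 and 40.4, and the summed RPKM was 15.4 and 40.4. Of 6 Schwann cell and nerve genes 1, *Mbp*, passed the filter, with a ratio of 1.15. *Pirt*, named after its values were seen, encodes a membrane protein that enhances *Trpv1* currents, and had a CvP RPKM of 4.26 beside 0.04 for the Epi. Its CvP level was thus above that of *Trpv1* itself. The part of nerve fibres in these values was not tested.

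**Figure D3:**
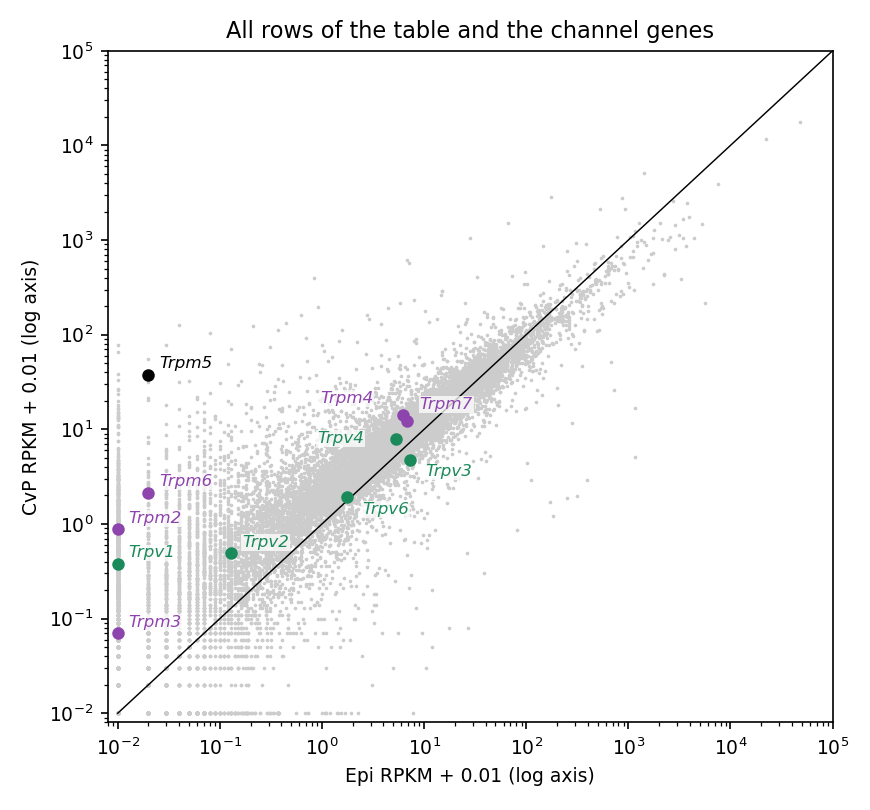
CvP RPKM against Epi RPKM for all 18498 rows of the table (grey), with 0.01 added to both values for the log axes and a line of equal values. TRPV genes are green, TRPM genes purple and *Trpm5* black. *Trpm4*, *Trpm7*, *Trpv4*, *Trpv6* and *Trpv3* lie within the band of most rows, and *Trpm6*, *Trpm2*, *Trpv1* and *Trpm3* at the left edge beside *Trpm5*.

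Genes listed beside *Trpm6* and *Trpm7* for magnesium transport or its control were mostly expressed in both tissues. Of 16 listed genes 11 passed the filter, of which 9 were higher in CvP RNA, 1 in Epi RNA and 1, the plasma membrane transporter *Slc41a1*, equal at 13.8 RPKM. The median log2 ratio was 0.56, beside 0.50 for all rows past the filter. A ratio above 3 was found for *Tusc3* (17.2 and 3.63, ratio 4.75), *Cnnm2* (1.90 and 0.44, ratio 4.32), a magnesium transport gene of the kidney, and *Pcbd1* (1.22 and 0.17, ratio 7.18). *Nipal1* was higher in the Epi, at 14.2 and 26.4, a ratio of 0.540. *Magt1* had an RPKM of 16.4 and 12.7. *Egf*, the hormone that raises *Trpm6* activity in the kidney, was at 0.52 and 0.85, under the filter. The highest ratio past the filter, 7.18 for *Pcbd1*, rested on about 28 and 4 reads (interval 2.41 to 27.0). It was below the lower limit of 53.4 for *Trpm6*.

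The sulfonylurea receptor genes, whose products join *Trpm4* in injured brain, were all under the filter. *Abcc8* was at 0.46 (CvP) and 0 (Epi), *Abcc9* at 0.45 and 0.08, and the potassium channel genes *Kcnj11* and *Kcnj8* at 0.64 and 0, and at 0.02 in both. The genes that act with *Trpm5* in taste cells, from the receptors to the ATP release channel *Calhm1* (3.03 and 0), were in contrast almost all of the CvP. Of the 9 with a row all passed the filter and 8 had a ratio above 3, with a median log2 ratio of 7.53. The exception was the calcium release channel *Itpr3*, at 30.1 and 21.9 RPKM, a ratio of 1.37. *Trpm4*, *Trpm7* and *Itpr3* thus had a sizeable Epi level, unlike *Trpm5*, *Gnat3* (127 and 0.03) and *Gnb3* (104 and 0.07).

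The remaining TRP channel genes covered a wider range, since *Trpm5* had a higher CvP level than every member and *Trpm8* a lower ratio. Of 18 listed 15 had a row and 7 passed the filter, all higher in the CvP and 4 with a ratio above 3, with a median log2 ratio of 1.77. These were *Trpm5*, the sour cell channel *Pkd2l1* (16.8 and 0), *Trpc1* (1.95 and 0.09, ratio 21.7) and *Pkd2l2* (2.11 and 0.55, ratio 3.84). *Mcoln1*, a lysosomal channel, and *Pkd2*, a channel of cilia and endoplasmic reticulum, were broad like *Trpm4* and *Trpm7*, at 13.5 and 8.86 and at 7.84 and 6.06. *Trpa1*, which is opened by irritants and shares pain fibres with *Trpv1*, had a CvP RPKM of 0.94, about 114 reads, and was listed at 0 for the Epi. The cold and menthol channel *Trpm8* went the other way, at 0.10 and 0.37, about 12 and 43 reads, a ratio of 0.270 (0.132 to 0.530). *Trpm1* was near equal, at 0.45 and 0.40. *Trpc2*, *Trpc4*, *Trpc5*, *Mcoln2* and *Mcoln3* were at or below 1.76 in the CvP.

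**Figure D4:**
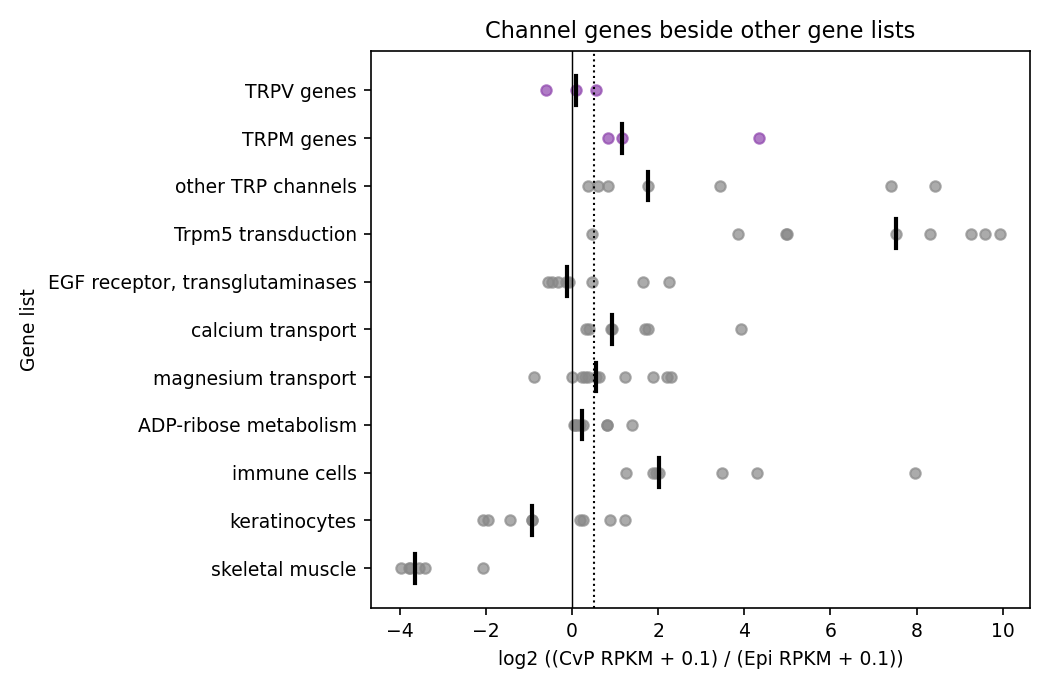
Log2 CvP/Epi ratio, with 0.1 added to each RPKM, of the single genes past the filter of RPKM 1, by gene list, with the channel genes in purple, other genes in grey and the median of each list as a black bar. The solid line marks equal values and the dotted line the median of all rows past the filter, 0.50. The median was 0.10 over 3 TRPV genes and 1.16 over 3 TRPM genes, beside 7.53 for the genes that act with *Trpm5* and -3.65 for skeletal muscle.

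The lengths behind these values bear on the order of the genes. The table lists a length above the longest coding transcript for 6 members, by more than 1.3 times in each, from 1.36 times for *Trpm7* to 2.71 times for *Trpv6*, 1.88 for *Trpv3* and 1.86 for *Trpv4*, and about the same length for *Trpm6* and *Trpm2*. If all reads behind the listed length were placed on the transcript alone, the CvP level would be 19.5 for *Trpm4*, 16.4 for *Trpm7*, 14.6 for *Trpv4*, 8.98 for *Trpv3* and 5.15 for *Trpv6*, with *Trpm6* still at 2.14. *Trpv6* would then be above *Trpm6*. The ratio of a gene between tissues does not depend on its length. None of the members shares exon bases with another gene of GENCODE M1.

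Genes with nearly the same 2 values are named for *Trpm4*, *Trpv3* and *Trpm6*. How common each pattern is was not counted. By distance on log2(RPKM + 0.1) over the 2 libraries, the nearest genes to *Trpm4* were *Ptpn9* (14.3 and 6.28), *Nme3* (14.2 and 6.40) and *Slc16a13* (14.0 and 6.08). Among those nearest to *Trpv3* were *Chaf1a* (4.74 and 7.28) and *Mapre2* (4.50 and 7.39). Nearest to *Trpm6* were *Csf3r* and *Dab1* (both 2.20 and 0.01) and the sodium channel *Scn3a* (2.22 and 0.01). With 2 libraries this likeness is of level only.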

How the data were processed

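Poly(A) RNA of the CvP and of the Epi, each pooled from 20 or more mice, was sequenced by the study as 1 library per tissue (75 bp, single end). The authors mapped the reads with Bowtie 0.12.7 to NCBI37/mm9 and obtained the deposited RPKM values with ERANGE, whose options are not given in the sources used here. Other columns of the deposited table hold gene annotation, a listed gene length in kb and the authors' CvP/Epi ratio, which was not used.

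The members and gene lists were chosen with earlier results of these data known. The rule named every member, *Trpm5* and the other TRP genes, up to 4 of the highest genes of each further list and those past the filter with a ratio above 3 or below 1/3, and the 3 nearest genes of the members with the highest RPKM and the extreme ratios. *Pirt* and the remaining list genes named beside these were picked with their values in view. A few genes that the rule or the lists include are not reported here. Depth came from RPKM steps in 163 rows of 0.1 kb. Reads per gene were taken over the listed length or, where shorter, the longest coding transcript in GENCODE M1, so they are approximate. Intervals (95%, Clopper-Pearson) and the floor of 3 reads cover counting error only, and the steps were tested on simulated data. Gene lists were described by counts and the median log2 ratio among genes at RPKM 1 or more in at least 1 library (pseudocount 0.1). Alternatives were other scalings, pseudocounts, filters, ratio limits, lengths and intervals. Lists not described with the results were general taste cells (2 of 2 above 3) and fibroblasts (6, of which 1 above 3 and 1 below 1/3). Endothelium (2 of 4 above 3) and melanocytes (1 past the filter, *Pmel*, ratio 2.94) were further such lists. Python 3.11.15, numpy 2.4.6, pandas 2.3.3, scipy 1.17.1 and matplotlib 3.10.9 were used.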

Additional observations from a re-analysis of the deposited data

How the results depend on the processing

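No paired analysis was possible because CvP and Epi RNA were each pooled into 1 library, which allows no test, and leaving out a replicate could not be run. The number of members with a ratio above 3 was 1 among those with an RPKM of at least 1. It was 4 with RPKM rescaled to a sum of 1000000, 5 with no filter, 2 with a minimum of 0.5, and 0 with a minimum of 3 or 10 or a CvP RPKM above 10. It was 3 at a ratio limit of 1.5 and 2 at a limit of 2. The number below the inverse limit, 0, was 1 (*Trpv3*) at a limit of 1.5. These follow from the limits and from the size of the RPKM after rescaling. The median log2 ratio of the members, 0.69, was 0.29 when ratios were divided by their median or their trimmed mean, 1.44 over 9 genes with rescaling, 0.65 and 0.62 with pseudocounts of 0.5 and 1, 0.99 with no filter, 0.83 with a minimum of 0.5 and 0.99 over 2 genes with a minimum of 10. The 8 members with an interval above 1 were 7 with the same divisions, without *Trpv4*, and 9 with rescaling, which added *Trpv6*. *Trpv3* had an interval below 1 under each of these alternatives. Of 49 alternative values of single ratios 30 stayed within the counting interval and none of a member with an interval apart from 1 changed direction. The ratio of *Trpm6*, 214, was 20.4, 5.18 and 3.11 with pseudocounts of 0.1, 0.5 and 1.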
